A study of Mus musculus with 6 samples.

Results

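The pre-T receptor and CD3 complex genes described here are 10 genes of early T cell development: Dntt, Rag1, Rag2, Ptcra, Cd3d, Cd3e, Cd3g, Cd247, Cd8a and Cd8b1. They were chosen by role and from their FPKM (fragments per kilobase of exon, scaled to the mapped reads of a library) in the same 6 libraries, in which several of them were higher after maternal antibiotics. They are 10 of the 55394 genes in the deposited files, and each has 1 entry, whose identifier carries the same symbol in the mouse annotation GENCODE M21. Since the Abx and Con values chose the genes, their differences are given as a description, with no test. Lung group 2 innate lymphoid cells (ILC2s) of neonatal mice were profiled by SMART-seq, a full-length cDNA method for low input, with 1000 sorted cells in each library. The 3 Abx libraries came from neonates of wild type C57BL/6 dams that drank ampicillin, metronidazole, neomycin and vancomycin from gestation day 10 to day 14, and the 3 Con libraries from neonates of control dams of the same strain. ILC2s were stained as CD45+ CD90.2+ CD25+ cells without lineage antigens, and the lineage antibodies covered CD3e, CD4, CD5, CD8a and TCR-β beside B220, NK1.1, Gr1, CD11b, CD11c and Ter119. The proteins of Cd3e and Cd8a were thus part of the gate, which acts on protein at the surface and not on RNA. The age in days of these neonates, and whether the libraries are separate animals or pools, are not given in the sources used here, so any p-value measures only the spread between these libraries, which may be technical.

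T cell progenitors in the thymus assemble their receptor genes from gene segments with the RAG recombinase, and the pairing of a finished beta chain with pre-T alpha at the cell surface, in a complex with the CD3 and zeta chains, lets them proceed to the stage at which CD4 and CD8 appear. ILC2s share several transcription factors with T cells, among them GATA3, TCF-1 and BCL11B, but carry no rearranged antigen receptor at their surface. They are therefore usually told from T cells by the absence of surface CD3.

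Of the 10 genes, 7 passed the filter on low values, 1 FPKM or more in 3 or more libraries, as did 8718 genes in all, while Rag1, Rag2 and Cd8a did not. Dntt and Ptcra each reached 1 FPKM in 1 Con library only, so they passed through the Abx libraries, in which they were high. Cd8b1 reached 1 FPKM in Con 1 and Con 2 but not in Con 3, so it too needed the Abx libraries to pass. Genes at 1 FPKM or more numbered 8574 to 9203 in the Con libraries against 7074 to 8193 in the Abx libraries. On log2(FPKM + 1), 2 Con libraries correlated with Pearson's r of 0.805 to 0.846, 2 Abx libraries with 0.655 to 0.690, and a Con with an Abx library with 0.674 to 0.766. How many reads each library had is unknown, and low values of these files are uneven: Xrcc6, which encodes a Ku subunit that every cell uses, was at 0.12 FPKM in Abx 1 and 60.8 FPKM in Abx 3. Polr2h, a shared subunit of the RNA polymerases, was listed at 0 in Abx 3 and at 9.44 to 71.3 FPKM in the other libraries. A gene at 0 is for this reason called listed at 0 and not absent. Xist, the RNA that coats the inactive X chromosome, was at 3.78 to 5.09 FPKM in Con and listed at 0 in each Abx library, while Y-linked Eif2s3y was at 0.03 to 0.86 FPKM in Con against 11.9 to 24.4 FPKM in Abx. Sex and the antibiotic therefore cannot be told apart in any difference below.

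Among the recombination genes, Dntt stood out. Dntt (ENSMUSG00000025014) encodes terminal deoxynucleotidyl transferase, which adds untemplated nucleotides where receptor segments are joined, and in mice it comes on in the thymus only around and after birth. Its FPKM was 0.03, 0.02 and 11.6 in Con 1, 2 and 3 and 75.9, 139.8 and 156 in Abx 1, 2 and 3. The groups did not overlap, and within Con, Con 3 stood well above the other two, which were near 0. Mean FPKM was 3.90 ± 6.71 (SD, n = 3) in Con against 124 ± 42.4 (SD, n = 3) in Abx. The difference between Abx and Con on log2(FPKM + 1) was 5.66 (SE 1.0), which was the highest of the 8718 genes in the fit. Without Con 3 it was 6.86. In such bulk samples, fewer cells with a gene and less of its RNA in each cell cannot be told apart. Among all genes above 0 in a library, Dntt lay at percentile 93.7 to 96.7 in the Abx libraries, at percentile 73.8 in Con 3 and at percentiles 12.2 and 12.7 in the other Con libraries. The gene lies on the plus strand of chromosome 19 at 41029275 to 41059525 (GRCm38).

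Rag1 (ENSMUSG00000061311), the DNA-binding and catalytic subunit of the recombinase, was far lower than Dntt. Its FPKM was 0.86 in Con 1, listed at 0 in Con 2 and Con 3, and 12.3, 0.99 and 7.80 in the Abx libraries. Every Abx library lay above every Con library, but Abx 2 barely so, and only 2 libraries reached 1 FPKM. Rag2 (ENSMUSG00000032864), whose protein is the obligate partner of RAG1, was listed at 0 in all 6 libraries. The recombinase was thus represented by 1 of its 2 genes. Dntt and Rag1 were also unequal among the Abx libraries: the ratio of Dntt FPKM to Rag1 FPKM was 6.18 in Abx 1, 141 in Abx 2 and 20 in Abx 3. On chromosome 2 (GRCm38) Rag1 spans 101638282 to 101649501 on the minus strand and Rag2 spans 101624718 to 101632529 on the plus strand. A further gene, B230118H07Rik, shares 80 exon bases with Rag1 on the same strand and 208 exon bases with Rag2 on the opposite strand, and was at 4.97 and 4.40 FPKM in Con 1 and Con 3, at 14.8 and 1.60 FPKM in Abx 1 and Abx 3 and listed at 0 in Con 2 and Abx 2. Reads of such overlaps cannot be assigned with certainty where strand is not kept, and the strand setting of the counting is not given in the sources used here.

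Ptcra (ENSMUSG00000036858) encodes pre-T alpha, the invariant partner of the beta chain, and is used as a marker of immature T cell progenitors. Its FPKM was 6.13 in Con 1, listed at 0 in Con 2 and Con 3, and 63.1, 44.6 and 15.2 in the Abx libraries. All Abx libraries lay above all Con libraries. The only Con library with Ptcra was also the only one with Rag1 or Cd8a, and it was not the one with Dntt. The difference on log2(FPKM + 1) was 4.23 (SE 1.0), the eleventh highest in the fit, and it was 5.18 without Con 1. The order of the Abx libraries was opposite for the 2 genes: Dntt was lowest in Abx 1 and highest in Abx 3, and Ptcra was highest in Abx 1 and lowest in Abx 3, and the ratio of Dntt to Ptcra was 1.2, 3.14 and 10.3 in Abx 1, 2 and 3. Ptcra lies on the minus strand of chromosome 17 at 46755663 to 46763712 (GRCm38).

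**Figure D1:**
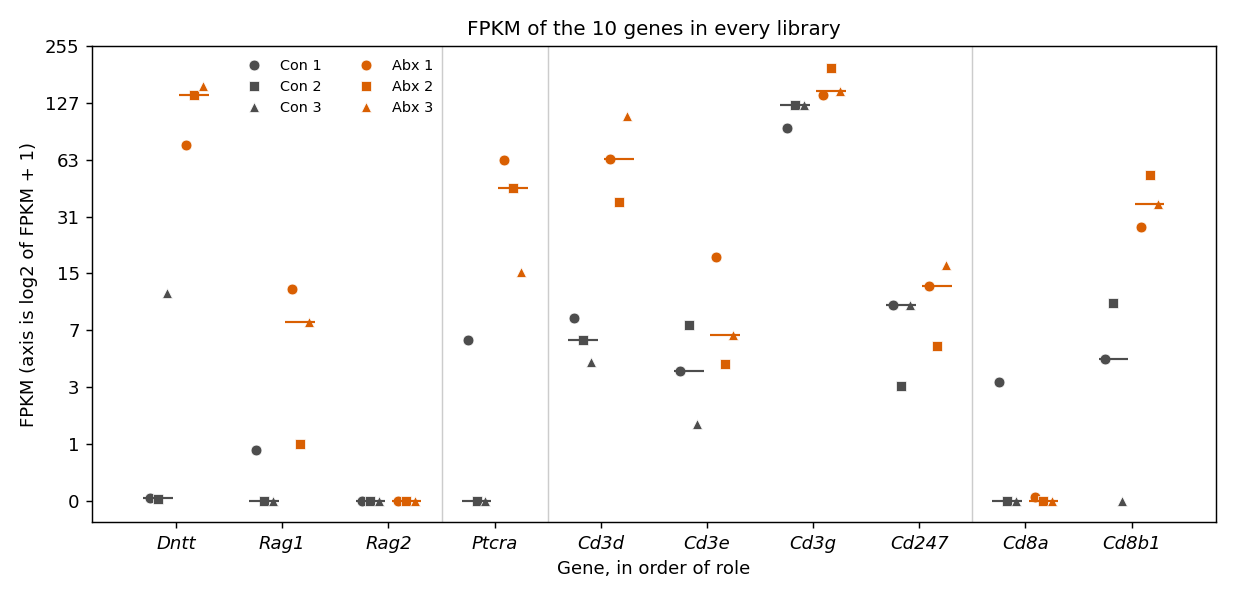
FPKM of each gene in each library, on an axis of log2(FPKM + 1) whose ticks give FPKM; gray symbols are Con, orange symbols are Abx, the symbol shape is the replicate number, and horizontal bars are group medians. The Abx points of Dntt, Ptcra, Cd3d and Cd8b1 sit above all Con points, those of Cd3e and Cd247 mix with them, Cd3g is high in all 6 libraries, and Rag2 is at 0 throughout.

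The CD3 chains did not move together. In the receptor complex CD3 epsilon pairs with CD3 delta and with CD3 gamma, so that a complete alpha-beta receptor holds all 3 proteins. Cd3g (ENSMUSG00000002033, CD3 gamma) had an FPKM of 93.2, 124 and 124 in Con 1, 2 and 3 and of 140.1, 196 and 147 in Abx 1, 2 and 3. It was high in every library, at percentile 94.8 to 97.2 of the genes above 0, and the Abx values lay just above the Con values. Its difference was 0.49 (SE 0.25) on log2(FPKM + 1), from group means of 114 ± 17.8 (SD, n = 3) and 161 ± 30.7 (SD, n = 3) FPKM.

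Cd3d (ENSMUSG00000032094, CD3 delta) was at 8.32, 6.10 and 4.46 FPKM in Con against 63.8, 37.1 and 108 FPKM in Abx. The groups did not overlap, and even Abx 2, the lowest Abx library, was far above Con 1, the highest Con library. The group means were 6.29 ± 1.94 and 69.7 ± 35.8 FPKM (SD, n = 3 each), and the difference on log2(FPKM + 1) was 3.18 (SE 0.51). It was between 2.80 and 3.56 when each library was left out in turn, which only describes the values that also chose the gene.

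Cd3e (ENSMUSG00000032093, CD3 epsilon), the chain that the gating antibody binds, was at 3.89, 7.57 and 1.55 FPKM in Con against 18.5, 4.31 and 6.57 FPKM in Abx. The groups overlapped: Con 2 was above Abx 2 and Abx 3, and Abx 1 stood alone at the top. The difference was 0.96 (SE 0.83) on log2(FPKM + 1) and 0.42 without Abx 1. Cd247 (ENSMUSG00000005763), the zeta chain that carries most of the signaling motifs of the complex, was at 9.90, 3.03 and 9.88 FPKM in Con against 12.8, 5.6 and 16.7 FPKM in Abx. Here too the groups overlapped, with a difference of 0.58 (SE 0.72) that was 0.11 without Con 2. Cd247 (chromosome 1, 165788681 to 165877277, plus strand) shares 3007 exon bases with Pou2f1 on the opposite strand, which was at no more than 2.07 FPKM in any library.

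The balance of the chains shifted accordingly. The ratio of Cd3g FPKM to Cd3d FPKM was 11.2, 20.4 and 27.8 in the Con libraries against 2.20, 5.29 and 1.36 in the Abx libraries, without overlap. Cd3g to Cd3e, in contrast, was 24.0, 16.4 and 79.9 in Con against 7.58, 45.6 and 22.4 in Abx, with overlapping groups. Of the summed FPKM of Cd3d, Cd3e and Cd3g, which was 105 to 138 in Con against 222 to 262 in Abx, Cd3g made up 88.4% to 95.4% in Con against 56.2% to 82.6% in Abx. Cd3d made up 3.43% to 7.89% in Con against 15.6% to 41.3% in Abx. The share of Cd3e stayed within 1.19% to 8.31% in all 6 libraries, so the chain that both pairs need was the scarcest of the 3 in 5 of the 6 libraries.

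**Figure D2:**
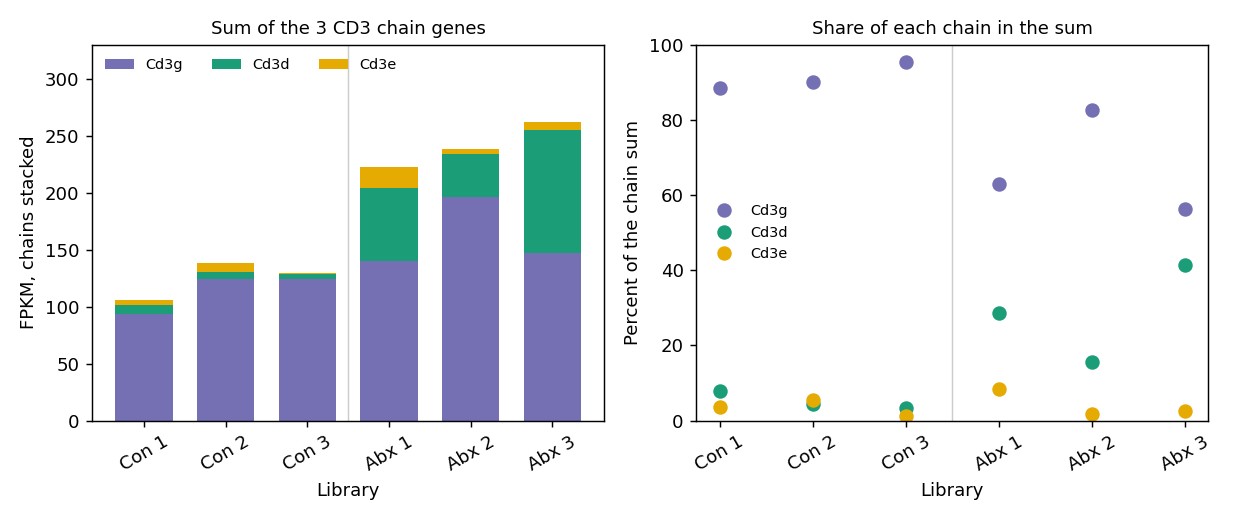
Left, FPKM of Cd3g, Cd3d and Cd3e stacked for each library; right, the percent of that sum taken by each chain. Abx bars are taller, and the share of Cd3d is 15.6% to 41.3% in Abx and 3.43% to 7.89% in Con, while Cd3e is a thin layer in every library.

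Cd3g and Cd3d are neighbours on chromosome 9, transcribed away from each other, and 1355 bases separate their starts (GRCm38, Cd3g 44969572 to 44980431 on the minus strand and Cd3d 44981786 to 44987339 on the plus strand). Cd3e (44998740 to 45009627, minus strand) begins 27841 bases from the start of Cd3d. Since adjacent genes differed in both level and difference, the 250 bases before the start of each are shown, with those of Dntt and Ptcra, which had the highest differences among the 10 genes. The sequences are from RefSeq (GRCm38.p6), run 5′ to 3′ on the strand of the gene up to the base before its start, and capitals mark E-boxes (CANNTG, the same on both strands), the motif of the E proteins that act in early T cell genes. RefSeq and GENCODE place the starts of these 4 genes at the same base. The windows are chr9:44980432-44980681 for Cd3g, chr9:44981536-44981785 for Cd3d, chr19:41029025-41029274 for Dntt and chr17:46763713-46763962 for Ptcra.
Cd3g: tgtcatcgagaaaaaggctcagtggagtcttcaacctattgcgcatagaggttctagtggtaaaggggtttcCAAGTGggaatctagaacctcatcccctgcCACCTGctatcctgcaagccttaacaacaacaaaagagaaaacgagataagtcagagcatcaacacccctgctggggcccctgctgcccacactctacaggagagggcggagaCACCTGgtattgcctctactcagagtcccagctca
Cd3d: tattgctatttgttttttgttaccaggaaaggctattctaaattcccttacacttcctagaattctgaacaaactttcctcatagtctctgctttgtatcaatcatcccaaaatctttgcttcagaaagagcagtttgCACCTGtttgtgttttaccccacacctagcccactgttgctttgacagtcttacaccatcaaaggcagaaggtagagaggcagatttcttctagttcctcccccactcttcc
Dntt: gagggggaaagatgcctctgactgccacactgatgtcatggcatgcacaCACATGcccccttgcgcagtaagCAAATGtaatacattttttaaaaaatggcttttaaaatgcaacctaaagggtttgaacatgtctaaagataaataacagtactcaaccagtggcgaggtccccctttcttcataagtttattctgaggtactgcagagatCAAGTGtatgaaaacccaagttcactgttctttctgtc
Ptcra: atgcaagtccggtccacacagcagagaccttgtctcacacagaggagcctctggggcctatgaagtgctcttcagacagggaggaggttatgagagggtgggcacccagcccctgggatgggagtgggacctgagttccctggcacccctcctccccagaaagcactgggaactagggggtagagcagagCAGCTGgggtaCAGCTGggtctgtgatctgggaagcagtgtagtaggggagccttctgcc

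The table of promoter windows holds 9 of the 10 genes (Cd8b1 is the other) and 32851 windows in all. E-boxes numbered 3 in the windows of Cd3g, Dntt and Rag1, 2 in those of Ptcra, Cd247 and Cd8a, and 1 in those of Cd3d, Cd3e and Rag2. At least 1 E-box was in 66.2% of all windows, at least 2 in 31.8% and at least 3 in 12.2%. Both E-boxes of Ptcra read CAGCTG and lie 60 and 49 bases before its start. The Cd3d window also held 3 matches to CTTTGA or CTTTGT, letters of the TCF/LEF motif, on either strand, a number reached by 0.78% of all windows, and no other window of the 9 held any. RUNX letters (TGNGGT, either strand) were in 7 of the 9 windows and in 40.1% of all windows, and GATA letters (GATAA, either strand) in those of Dntt, Cd3g and Cd8a and in 22.6% of all windows. These matches describe letters only.

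The CD8 chains were discordant as well. CD8 alpha can reach the cell surface alone, whereas CD8 beta does so only with CD8 alpha. Cd8b1 (ENSMUSG00000053044, CD8 beta) was at 4.62 and 10.2 FPKM in Con 1 and Con 2, listed at 0 in Con 3, and higher in Abx, where it was at 27.1, 52.2 and 36.4 FPKM. All Abx libraries lay above all Con libraries, and the difference on log2(FPKM + 1) was 3.27 (SE 0.92), or 2.27 without Con 3. Cd8a (ENSMUSG00000053977, CD8 alpha) was at 3.25 FPKM in Con 1, at 0.04 FPKM in Abx 1 and listed at 0 in the other 4 libraries. The only library with Cd8a above 1 FPKM was thus a Con library, while the 3 libraries with the most Cd8b1 had almost none. The genes lie on the plus strand of chromosome 6 (GRCm38), Cd8b1 at 71322788 to 71337494 and Cd8a at 71373427 to 71379173, with 35932 bases between them. Cd4, the other coreceptor, was listed at 0 in all libraries but Abx 2, where it was at 7.46 FPKM.

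Ordered by median FPKM, the Con libraries had Cd3g (124), Cd247 (9.88), Cd3d (6.10), Cd8b1 (4.62), Cd3e (3.89) and Dntt (0.03), and the other 4 genes had a median of 0. Only Cd3g was separated from the next gene in that order, and all other neighbours overlapped over the libraries. In the Abx libraries the order was Cd3g (147), Dntt (139.8), Cd3d (63.8), Ptcra (44.6), Cd8b1 (36.4), Cd247 (12.8), Rag1 (7.80) and Cd3e (6.57), with a median of 0 for Cd8a and Rag2. Neighbours overlapped from Cd3g to Cd8b1 and from Cd247 to Cd3e, with a gap between Cd8b1 and Cd247 and another between Cd3e and Cd8a. FPKM is scaled by exon length, so these levels can be set beside each other between genes, but only roughly. Exons shared with other genes, as for Rag1 and Cd247, and the unclear annotation may affect genes unequally. The number of the 10 genes at 1 FPKM or more was 7, 5 and 5 in the Con libraries against 8, 7 and 8 in the Abx libraries.

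Over all 8718 genes in the fit, 4 (0.0459%) were called higher and 1 (0.0115%) lower in Abx, where a call needed a fold change over 2 and a Benjamini-Hochberg adjusted p under 0.05 in limma. None of the 7 members in the fit was called. An unadjusted p under 0.05 was reached by 4.74% of all genes in the higher direction and 6.25% in the lower direction. All Abx libraries lay above all Con libraries for 8.49% of the genes and below them for 8.73%, and the former held for 5 of the 7 members in the fit and, below the filter, for Rag1. Since these values chose the genes, nothing is read from those counts. The median difference over all genes was -0.06 on log2(FPKM + 1).

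Other genes of the pathway were taken from 3 lists by role, with 59 genes that are not among the 10. Of these, 49 passed the filter, 0 were called, and 8 had an unadjusted p under 0.05 in limma, 5 higher and 3 lower in Abx. Tcf7, among the 5, passed only through the Abx libraries, and Dclre1c, among the 3, only through the Con libraries, so nothing is read from the p of either. All Abx libraries lay above all Con libraries for 8 of the 49 and below them for 5. Their median difference was -0.05, close to that of all genes, with 24 higher and 25 lower.

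The machinery that joins the ends made by the recombinase had 14 of 17 genes in the fit, with a median difference of 0.23 on log2(FPKM + 1). H2afx (H2ax in the files), the histone variant that is phosphorylated at DNA breaks, was at 35.8, 30.8 and 28.8 FPKM in Con against 121, 83.1 and 57.6 FPKM in Abx (difference 1.37, SE 0.35, limma adjusted p = 0.145). Xrcc5, the other Ku subunit, was at 1.37 to 9.35 FPKM in Con against 9.27 to 41.7 FPKM in Abx (difference 2.08, SE 0.82, limma adjusted p = 0.388), and these ranges overlapped slightly. Polm, a polymerase related to Dntt, was at no more than 2.35 FPKM in Con against 0.13, 4.95 and 17.4 FPKM in Abx (difference 1.65, SE 1.07). On the lower side were Dclre1c, which encodes the hairpin-opening nuclease Artemis (1.64 to 2.71 FPKM in Con against 0.06 to 0.25 FPKM in Abx, difference -1.34, SE 0.40), and with wider errors Poll (-1.86, SE 1.24) and Mre11a (-1.40, SE 0.97). Dclre1c passed the filter only through the Con libraries, so no p is given for it. Hmgb1 and Hmgb2, chromatin proteins that assist the recombinase, were at 41.9 FPKM or more in all libraries. Genes of this list at 1 FPKM or more numbered 13 or 14 in each Con library and 9 to 11 in each Abx library.

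Receptor signaling partners had 16 of 21 genes in the fit, with a median difference of -0.27. Lck, the kinase that phosphorylates the CD3 and zeta chains, was at 57.9, 60.5 and 58.0 FPKM in Con against 186, 128.3 and 361 FPKM in Abx (difference 1.79, SE 0.38, limma adjusted p = 0.104). Cd2, an adhesion receptor of T and NK cells, was at 8.40 to 14.4 FPKM in Con against 20.9 to 38.5 FPKM in Abx (difference 1.3, SE 0.46, limma adjusted p = 0.306). Zap70, the kinase that docks on the phosphorylated chains, was at 81.0 to 95.97 FPKM in Con against 52.3 to 68.0 FPKM in Abx, and the adaptor Lat at 123 to 138 FPKM in Con against 165 to 211 FPKM in Abx. Fyn and Syk, kinases related to Lck and Zap70, were at 14.3 to 38.7 FPKM and at no more than 1.13 FPKM. Prkcq (difference 0.99, SE 1.04), Rasgrp1 (-1.75, SE 1.05) and Csk (-0.98, SE 0.88) had wide errors. Of the 16 genes, 7 were higher and 9 lower in Abx.

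The T lineage transcription programme had 19 of 21 genes in the fit, with a median difference of -0.05. Tcf7, which encodes TCF-1, was listed at 0 throughout Con and reached 29.4, 19.4 and 28.6 FPKM in Abx 1, 2 and 3. It passed the filter only through the Abx libraries, in which it was high, so no p is given and its difference is only drawn. The paper also names it among the genes upregulated in Abx. Satb1, a chromatin organizer of thymocytes, was at no more than 3.42 FPKM in Con against 5.20 to 7.12 FPKM in Abx (difference 1.68, SE 0.78). Among the E proteins, Tcf12 (HEB) was at 2.28 to 4.89 FPKM in Con against 0.23 to 1.43 FPKM in Abx (difference -1.48, SE 0.59, limma adjusted p = 0.398), and Tcf3 (E2A) was at 15.4 to 28.1 FPKM in every library but Abx 1, where it was at 0.21 FPKM (difference -1.45, SE 1.10). Id3, an inhibitor of E proteins, differed by 1.35 (SE 1.49). Notch1, the receptor that commits progenitors to the T lineage, was at no more than 4.40 FPKM, and its target Dtx1 at no more than 0.68 FPKM, while Hes1, another target, was at 71.4 to 213 FPKM.

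**Figure D3:**
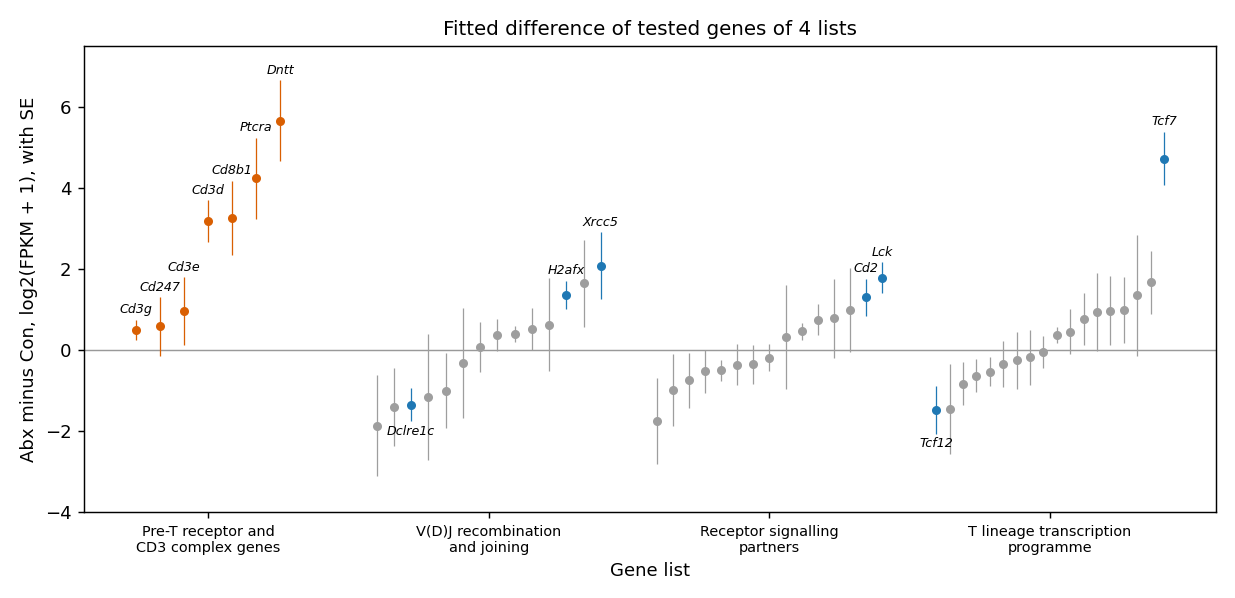
Difference between Abx and Con on log2(FPKM + 1) with its standard error for the members and 47 of the 49 pathway genes that passed the filter, ordered within each list; named blue genes had an unadjusted p under 0.05 and gray genes did not, and the members, in orange, carry no test. Members run from 0.49 (Cd3g) to 5.66 (Dntt), and the pathway genes lie on both sides of 0. Tcf7, which passed the filter only through the Abx libraries, is highest among them.

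Markers of other cells that could carry these genes were compared across the libraries. Of 16 thymocyte markers, 12 passed the filter, with a median difference of 0.05, 6 higher and 6 lower in Abx. Tcf7 passed only through the Abx libraries, so no p is read for it. Arpp21 was lower at an unadjusted p under 0.05 (216 to 364 FPKM in Con against 45.4 to 168 FPKM in Abx, difference -1.50, SE 0.49, limma adjusted p = 0.264). The summed FPKM of the 16 markers was 327 to 514 in Con against 261 to 352 in Abx, and Arpp21 made up most of it in Con. Without Arpp21, a sum chosen after seeing the data, the other 15 markers came to 125, 150.1 and 112 FPKM in Con against 216, 184 and 122 FPKM in Abx, with overlapping groups and the higher median in Abx. Of the first markers of that list, Cd4 was at 0 in 5 libraries, Cd1d1 was at 4.19 to 30.3 FPKM, and Themis was at 2.38 and 6.83 FPKM in Abx 2 and Abx 3 and at no more than 0.81 FPKM in the others. Endou, which did not pass the filter, was listed at 0 in 4 libraries and at 13.0 and 17.5 FPKM in Abx 2 and Abx 3.

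Of 14 markers of mature alpha-beta T cells, 9 passed the filter (median difference -0.19), and the summed FPKM of the list was 1441 to 1692 in Con against 2690 to 3065 in Abx. Most of that sum was the beta chain constant genes. Trbc1 was at 208 to 387 FPKM in Con against 633 to 778 FPKM in Abx (difference 1.34, SE 0.26), and Trbc2 at 874 to 958 FPKM and 1639 to 1803 FPKM (difference 0.92, SE 0.15), each with a limma adjusted p of 0.0911. Trac, the alpha chain constant gene, was at 11.7, 3.01 and 10.8 FPKM in Con against 21.2, 14.1 and 0.22 FPKM in Abx. The libraries thus held abundant beta chain and little alpha chain RNA in both groups. Among the 9 markers that passed the filter, 4 were higher and 5 lower in Abx. The lowest differences were those of Ccr7 (-0.88, SE 1.45) and Ubash3a (-0.74, SE 0.65). Ubash3a was at 5.83 to 9.19 FPKM in Con against 3.35 to 4.91 FPKM in Abx. Cd5 was at no more than 0.54 FPKM in Con against 0.06, 5.38 and 11.5 FPKM in Abx, and Cd6 and Cd40lg were at 0 in at least 4 libraries. What part such cells had in the members' values was not tested.

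**Figure D4:**
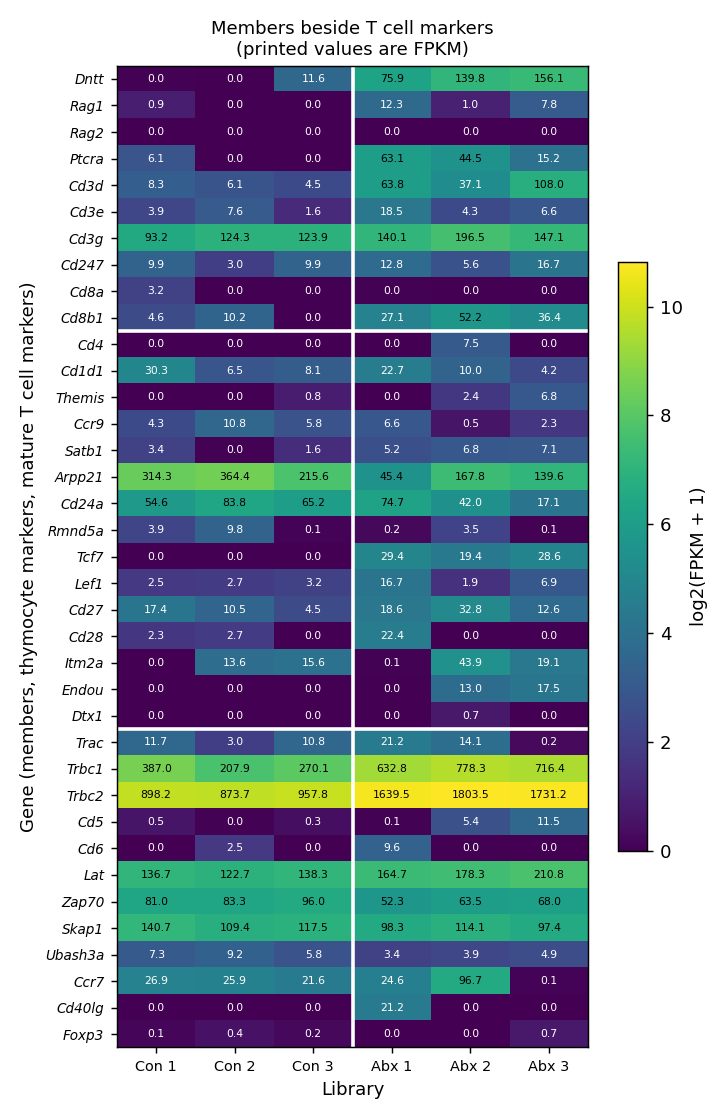
FPKM of the 10 genes, 15 of the 16 thymocyte markers and the mature alpha-beta T cell markers in each library, colored by log2(FPKM + 1). Trbc1, Trbc2, Lat, Zap70 and Skap1 are high in all 6 libraries, Dntt, Ptcra, Cd3d, Cd8b1 and Tcf7 are brighter in the 3 Abx columns, and Rag2, Cd8a, Cd4 and Dtx1 stay dark in most.

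The remaining marker lists gave no call. Of 18 ILC2 markers, 16 passed the filter (median difference -0.53), with a summed FPKM of 3145 to 3557 in Con against 2341 to 2904 in Abx. Gata3 was at 33.9 to 97.5 FPKM, Rora at 35.1 to 99.9 FPKM and Il7r at 18.1 to 57.3 FPKM, but Il1rl1, the IL-33 receptor, was at no more than 2.94 FPKM and Ptgdr2 was listed at 0 in all libraries. Icos (difference -1.37, SE 0.23, limma adjusted p = 0.0911), Areg (-1.40, SE 0.27, limma adjusted p = 0.0911) and Calca (-1.99, SE 0.64, limma adjusted p = 0.253) were the genes of that list with the lowest differences. Of 14 B cell and B progenitor markers, 8 passed the filter (median difference 0.99, summed FPKM 389 to 511 in Con against 857 to 914 in Abx), but of the genes that mark B progenitors, which also use Dntt, Vpreb2 and Igll1 were listed at 0 in all libraries and Vpreb1 and Ebf1 did not exceed 0.15 FPKM, while Vpreb3 was at 10.5 to 24.1 FPKM in Con 2, Abx 2 and Abx 3. The sum was mostly Ighm (109 to 159 FPKM in Con against 358 to 429 FPKM in Abx, difference 1.57, SE 0.22, limma adjusted p = 0.0911) and Igkc (126.9 to 218 FPKM and 261 to 365 FPKM), with Cd22 lower (-2.06, SE 0.70).

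Of 15 NK and ILC1 markers, 7 passed the filter (median difference -0.25, summed FPKM 106 to 350 in Con against 377 to 638 in Abx). Of the 7, 3 were higher and 4 lower in Abx. Gzma was at 13.8 and 10.8 FPKM in Con 1 and Con 2, listed at 0 in Con 3, and reached 224, 218 and 215 FPKM in Abx. It needed the Abx libraries to pass the filter, so no p is given. Nkg7 was at 7.61 to 37.3 FPKM in Con against 52.2 to 212 FPKM in Abx (limma adjusted p = 0.14). Fcer1g (difference -2.60, SE 1.68), Gzmb (-1.79, SE 1.27) and Fcgr3 (-0.76, SE 1.34) were lower in Abx, with wide errors. Klrb1c, Klra8, Prf1 and Tbx21 were listed at 0 in all libraries and Ncr1 and Klre1 in all but Con 1. Con 1, the Con library with Ptcra, Rag1 and Cd8a, was thus also the one with Ncr1 (7.90 FPKM) and Klre1 (2.09 FPKM). Xcl1, of the same list, was instead at 10.7 FPKM in Con 2 and listed at 0 in all other libraries. The Abx libraries, with Ptcra at 15.2 to 63.1 FPKM, had Ncr1 and Klre1 listed at 0. Of 11 myeloid and mast cell markers, 5 passed the filter (median difference -0.55, summed FPKM 521 to 687 in Con and 471 to 656 in Abx), with Mcpt8 lower (-2.12, SE 0.70) and Lyz2 at 101 to 368 FPKM. Of 10 genes of the antibodies used for the gate and of CD45, 3 passed the filter, namely Cd3e, Ptprc and Ly6c1, and the sum of the 8 that are not members was 18.7 to 47.8 FPKM in Con and 37.0 to 65.5 FPKM in Abx. Ptprc, the gene of CD45, for which cells were selected, held 18.6 to 45.0 FPKM of that sum. The list did not hold Trbc1 and Trbc2, genes of the TCR-β antigen, whose values are given above. Whether cells of these lists had a part in the levels of the members was not tested.

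Genes whose pattern over the 6 libraries was most like that of a member were found by Pearson's r of log2(FPKM + 1) among the genes in the fit, as a description over 6 points that share their libraries. For Dntt they were Gm9856 (r = 0.998), AW112010 (0.995) and Gstp-ps (0.990), all lowest in Con 1 and Con 2, intermediate in Con 3 and highest in Abx, and 33 genes exceeded 0.95. For Ptcra they were mt-Tq, Gsta4 and Selenoh (0.987 to 0.988), which were higher in Con 1 than in the other Con libraries, and 42 genes exceeded 0.95. For Cd3e they were Ccdc71l, H2-T-ps and Mrpl14 (0.979 to 0.989), which peaked in Abx 1, and 9 genes exceeded 0.95. The 3 nearest genes of each of these 3 members held no other member.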

How the data were processed

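SMART-seq was run on 3 Abx and 3 Con libraries of 1000 sorted neonatal lung ILC2s each. The deposited values are FPKM per gene, which the authors made with Cutadapt, HISAT2 and StringTie. The study's methods name a human Ensembl annotation (release 96), the submitters' processing notes list Bowtie 0.12.2 and the builds mm8 and mm9, and the identifiers are mouse, 55134 of 55394 being in GENCODE M21 (GRCm38), from which coordinates were taken. FPKM are not counts, so limma replaced the authors' DESeq2, and read depth is unknown.

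The 8718 genes that reached 1 FPKM in 3 or more libraries were fitted on log2(FPKM + 1), a scale that understates changes of low genes, with limma 3.58.1 in R 4.3.3 (lmFit, eBayes with trend, two-sided, Benjamini-Hochberg adjustment over all genes fitted), without a block. Genes were called where the adjusted p was under 0.05 and the fold change over 2. The fit was tested on simulated data. Tables and figures were made with Python 3.11.15, pandas 2.3.3, numpy 2.4.6 and matplotlib 3.10.9. The same-numbered libraries were not paired by any source. The 10 genes and all lists were chosen with earlier results of these data known. Named from each list were genes called, up to 3 with the largest difference in each direction and the 4 written at its head, and not all of these are given (2 list genes are not reported here). The lists were V(D)J recombination and joining, receptor signaling partners, T lineage transcription programme, and markers of ILC2s, thymocytes, alpha-beta and gamma-delta T cells, NK cells and ILC1s, B cells, myeloid and mast cells and the lineage gate. Promoter windows came from RefSeq (GRCm38.p6). Alternatives were pseudocounts of 0.1 and 0.01, quantile normalization, median centring, no filter, a mean of at least 5 FPKM, robust variance, a replicate block, the sum of entries with a symbol and each library left out.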

Additional observations from a re-analysis of the deposited data

How the results depend on the processing

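Over all genes, 5 were called, and 0 were called with a pseudocount of 0.1 or 0.01, median centring, no filter (19564 genes fitted) or a replicate block, 7 with quantile normalization or the stricter filter (6025 genes fitted), and 0 to 2 when 1 library was left out. The call count thus rests on each library, and the cause was not tested. The same-numbered libraries do not deviate together (r = -0.0199, -0.0286 and 0.0097), and the replicate block left 7 of the pathway genes at an unadjusted p under 0.05, against 8 without it. That count was 6 to 12 over all alternatives, and 0 pathway genes and 0 of the members fitted (7, or 9 without the filter) were called under any of them.

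The direction of the members was fixed by how they were chosen and is not counted here. Pseudocounts moved the genes near 0 in Con: Dntt from 5.66 to 7.70 and 8.94, Ptcra from 4.23 to 6.47 and 8.68, and Cd8b1 to 5.58 at 0.01. Their sizes thus depend on that choice. Ranks at pseudocounts of 1, 0.1 and 0.01 were 1, 4 and 7 for Dntt and 11, 8 and 10 for Ptcra. They were 28, 54 and 67 for Cd8b1 and 40, 146 and 311 for Cd3d. Over all settings, libraries left out included, Dntt ranked 1 to 7, Ptcra 6 to 27, Cd8b1 17 to 199 and Cd3d 34 to 311. Leaving out 1 library gave 5.05 to 6.86 for Dntt, 3.76 to 5.18 for Ptcra, 2.80 to 3.56 for Cd3d, 0.42 to 1.38 for Cd3e, 0.34 to 0.59 for Cd3g, 0.11 to 1.0 for Cd247 and 2.27 to 4.01 for Cd8b1. Cd3e and Cd247 fell to their lowest values without Abx 1 and without Con 2. Each symbol has 1 entry, so summing entries changed nothing. Without read counts no counting error can be given, and values listed at 0 limit all statements on Rag1, Rag2, Cd8a and Cd4.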

Other observations

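The gamma-delta T cell markers include the constant genes of the gamma chain, whose RNA was abundant in both groups. Trgc1 was at 265, 202 and 114 FPKM in Con against 353, 362 and 162 FPKM in Abx (difference 0.58 on log2(FPKM + 1), SE 0.42), and Trgc4 was at 90.5 to 157 FPKM in Con against 51.9 to 145 FPKM in Abx (difference -0.41, SE 0.42). Trgc2 was at no more than 0.05 FPKM in Con against 6.93 and 14.2 FPKM in Abx 2 and Abx 3. Trdc, the delta chain constant gene, was at 1.91, 0.01 and 1.19 FPKM in Con against 8.08, 6.81 and 4.91 FPKM in Abx (difference 2.01, SE 0.71). It needed the Abx libraries to pass the filter, so no p is given. Of the 8 genes of this list, 5 passed the filter and 0 were called, with a median difference of 0.24 and a summed FPKM of 376 to 418 in Con against 363 to 616 in Abx. Il17a was at 17.9 to 121 FPKM in Con against 26.2 to 95.4 FPKM in Abx, and Sox13 and Cd163l1 were listed at 0 or near 0 in all libraries but Abx 3, where Cd163l1 was at 14.0 FPKM. The gate held antibodies to CD3e, CD5 and TCR-β, and none to a gamma or delta chain is named in the study's methods. What part gamma-delta T cells had in these values was not tested.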
